A study of Mus musculus with 2 samples.

Results

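Immunoglobulin-rich cells, 97 in all, were found among 14083 kept cell barcodes of mouse bone marrow, 35 of 6080 in a Trsp knockout library and 62 of 8003 in a control library. A barcode was kept when it had at least 1000 genes and under 10% of its unique molecular identifiers (UMIs, counted molecules) from mitochondrial genes. It was a member when Igkc (the kappa light chain constant gene) and Jchain together gave at least 2% of its UMIs. A second route asked for at least 3 UMIs of Cd79a, at most 1 of Dntt, and at least 1% of UMIs from Ighm and Igkc. All 97 cells met the first route. The second was met by 25 of the 35 knockout and 49 of the 62 control cells, and by 0 cells that had missed the first. The members made up 0.576% of kept barcodes in the knockout library (95% exact Clopper-Pearson interval 0.401 to 0.80) and 0.775% in the control library (0.594 to 0.992), and these intervals overlap. The cells were thus chosen by their counts of Igkc, Jchain, Cd79a and Ighm, and the levels of these genes are a description only.

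The knockout library came from Trsp f/f:Mx1-Cre mice and the control library from Trsp f/f mice, both on C57BL/6. Trsp is the gene of the selenocysteine tRNA, and Mx1-Cre is a recombinase under an interferon-inducible promoter that is active in blood-forming cells. Mice of both genotypes had been injected with pI-pC, a synthetic double-stranded RNA and interferon inducer, at 500 µg in each of 3 doses on alternate days, at a time the series record places at 7 weeks from birth, and marrow was taken 9 weeks after the last dose. Lineage-, cKit+ cells of femora and tibiae had been frozen and thawed before loading. The sources used here do not say how many mice gave a library. With 1 library per genotype there is no replicate check and no test of any difference, and every interval below is a 95% interval that covers counting error only. Trsp itself was not analysed here, and whether it was deleted in the member cells was not tested.

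Plasma cells are the antibody-secreting end stage of the B lineage. They switch off much of the B cell program, enlarge the endoplasmic reticulum (ER) and devote much of their mRNA to 1 heavy and 1 light chain, and many of them live in bone marrow niches. Selenoproteins carry selenocysteine, which is read from an in-frame UGA codon by the tRNA that Trsp encodes. Several of them, among them SELENOS, SELENOK, SELENOF, SELENOT and SELENOM, sit in the ER, where antibody chains are folded.

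The libraries held 11556 knockout barcodes with 152092210 UMIs and 14372 control barcodes with 184683653 UMIs. Members had a median of 26244 UMIs in the knockout and 24799 in the control library, against 22397 and 20605 in the rest of kept barcodes. The threshold fell in a gap. The lowest member had 4.16% of its UMIs from Igkc and Jchain in the knockout and 6.09% in the control library, and the highest barcode outside had 1.12% and 0.591%. The 2 files shared 39 barcode sequences, and 0 of these were members. Igkc UMIs were also found outside the members: 54.5% of other knockout and 57.3% of other control barcodes had at least 1 Igkc UMI, but immunoglobulin genes and Jchain gave only 0.0321% and 0.0230% of the UMIs of those barcodes. Levels below are UMIs summed over the cells of a library per 1000000 UMIs that are not from immunoglobulin genes or Jchain (CPM), so that antibody mRNA does not set the scale. With all UMIs as the denominator every log2 ratio of knockout over control would be 0.20 higher over all members and 0.091 higher in the set without progenitor RNA described below.

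The members carried the plasma cell program, and several genes that define mature B cells had few or no UMIs in them. Of 17 listed plasma cell genes, 15 were at least 4-fold higher in members than in the rest of kept barcodes in both libraries and present in at least 25% of members of each, while 183 of 3537 genes measured in that comparison (5.17%) were. Sdc1, which encodes the plasma cell surface proteoglycan CD138, stood at 285 CPM in knockout and 363 CPM in control members, against 5.59 and 2.80 CPM in the rest of the same libraries. Xbp1, the transcription factor that drives the secretory program, stood at 1006 and 1524 CPM in knockout and control members. Prdm1 and Irf4, the factors that commit cells to the plasma cell fate, were at 113 and 262 CPM in knockout members and at 72 and 161 CPM in control members, and all 4 values in the rest were under 1 CPM. Tnfrsf17, the receptor for the survival factor APRIL, was at 255 CPM in knockout and 289 CPM in control members.

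The mature B list was mixed. Its 23 genes summed to 955 CPM in knockout and 1157 CPM in control members, against 194 and 177 CPM in the rest, and in the members without progenitor RNA described below 9 and 8 of them were at 0 UMIs. Pax5, Cd22 and Cxcr5 had 0 UMIs in knockout and in control members. Spib had 0 UMIs in knockout and 3 in control members, and Fcer2a had 1 and 0. Of 23 listed mature B genes, 5 passed 4-fold over the rest in both libraries. Ms4a1, which encodes CD20, was among them at 59.9 CPM in knockout and 69.4 CPM in control members, with UMIs in 16 of 35 and 28 of 62 cells. Fcrla, an intracellular Fc receptor-like protein of B cells, was another, at 206 and 249 CPM. The precursor B genes Rag1, Rag2, Vpreb1, Vpreb2, Il7r and Lef1 were at 0 UMIs in members of both libraries. The other 2 genes of that list were Igll1, with 0 UMIs in knockout and 1 in control members, and Erg, with 12 and 2. The cells are called plasma cells below, after their leading genes.

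**Figure D1:**
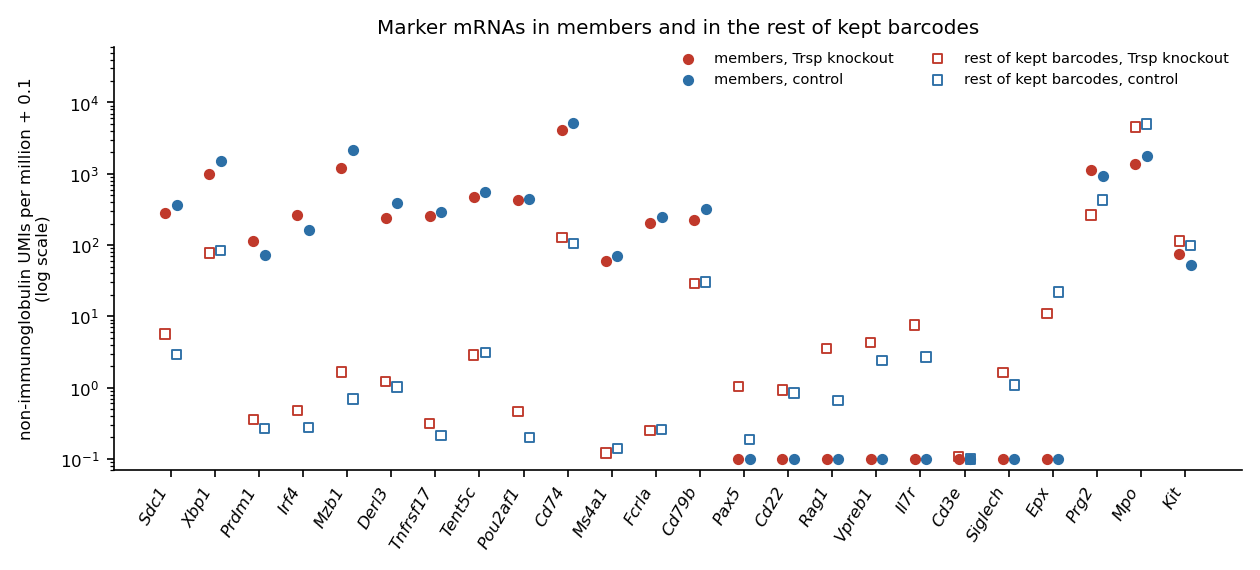
Summed level of 24 marker mRNAs on a log axis, in UMIs per 1000000 non-immunoglobulin UMIs plus 0.1, for members (filled circles) and the rest of kept barcodes (open squares), Trsp knockout left of control. Plasma cell genes such as Sdc1 (285 and 363 CPM in knockout and control members, 5.59 and 2.80 CPM in the rest) stand far above the rest, and Pax5, Cd22, Rag1 and Siglech sit at 0 in members.

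The 15 non-immunoglobulin genes with the highest fold over the rest included more than the textbook markers. By the smaller fold of the 2 libraries, Reln (an extracellular matrix glycoprotein), Gm34215, Wnt10a (a Wnt ligand), Chst1 (a sulfotransferase of glycan chains), Prlr (the prolactin receptor), Fut1 (a fucosyltransferase), Cacna1s and Cacna1h (calcium channel subunits) preceded Ms4a1. Chst1 stood at 358 CPM in knockout and 370 CPM in control members, against 0.144 and 0.154 CPM in the rest, and had UMIs in 34 of 35 and 57 of 62 cells. Wnt10a stood at 136 CPM in both, in 27 and 48 cells. Fcrla, Tnfrsf17, Pou2af1 (the B cell coactivator OCA-B), Bhlhe41 (a repressor known from B-1a cells), Mzb1 (an ER cochaperone of antibody-secreting cells) and Epcam (an epithelial adhesion molecule) completed the 15. Epcam was at 159 CPM in knockout and 336 CPM in control members. Prg2, known as the major basic protein of eosinophil granules, was at 1113 CPM in knockout and 930 CPM in control members, against 265 and 431 CPM in the rest, while the eosinophil peroxidase gene Epx was at 0 UMIs in members of both libraries.

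Some members held RNA of another cell type, and they gave a larger share of the members' non-immunoglobulin UMIs in the knockout library. Among 35 knockout and 62 control members, 8 and 9 had 88 to 1164 and 114 to 1119 UMIs from the neutrophil progenitor and stem cell marker lists, against 1 to 10 in the other 27 knockout and 2 to 23 in the other 53 control members. The line between them, 40 UMIs, was chosen after these values were seen. The 17 cells had more genes, with medians of 5866.5 in the knockout and 4542 in the control library, against 2684 and 2813 in the others. Their immunoglobulin and J chain share was lower, at 20.02% to 28.1% in knockout and 11.8% to 25.4% in control cells, against 28.9% to 61.1% and 29.2% to 67.6%. Scrublet, which scores barcodes for 2 captured cells, marked 0 of the 97 members. The 8 knockout cells gave 268699 of the 567823 non-immunoglobulin UMIs of all knockout members, and the 9 control cells gave 201452 of 807272. Results are given for all members and for the 27 knockout and 53 control members without progenitor RNA, since several change between the 2 sets.

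**Figure D2:**
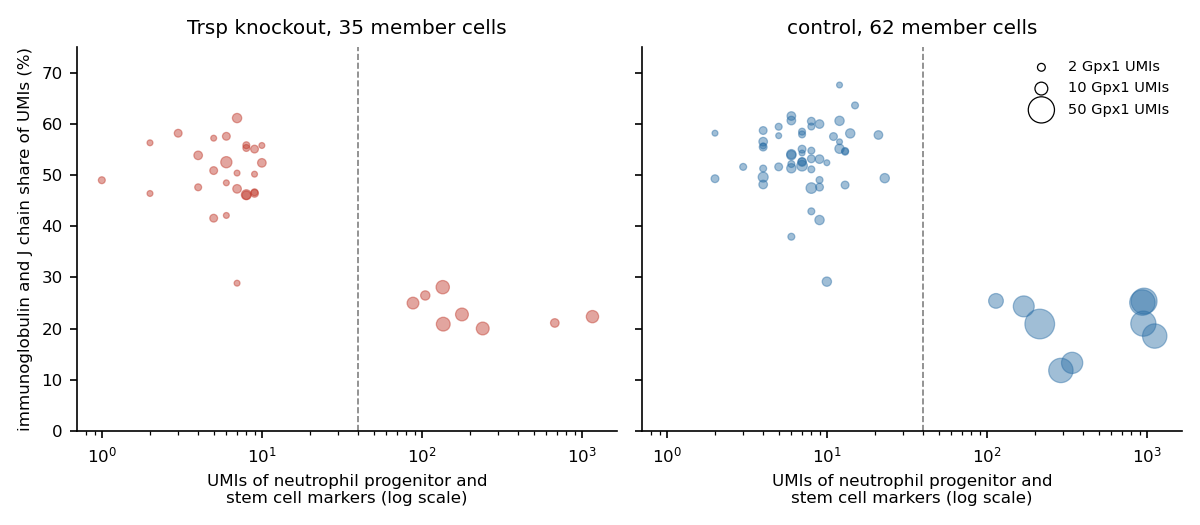
Immunoglobulin and J chain share of UMIs (%) against UMIs of neutrophil progenitor and stem cell markers (log axis) for each of 35 Trsp knockout (left) and 62 control (right) members; the point area grows with the Gpx1 UMIs of the cell and the dashed line marks 40 UMIs. The 8 knockout and 9 control cells right of the line lie at 20.02% to 28.1% and 11.8% to 25.4%, and Gpx1 reaches 12 UMIs in those knockout cells and 65 in those control cells.

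Even in members without progenitor RNA some progenitor transcripts were counted. Mpo, a neutrophil granule gene that plasma cells should lack, stood at 257 CPM in knockout and 289 CPM in control cells of this set, against 4518 and 4998 CPM in the rest. Marker lists of other mature cells differed. Of 14 T, NK and innate lymphoid genes, 12 were at 0 UMIs in these knockout and 11 in these control members, with summed levels of 10.0 and 9.90 CPM against 233 and 337 CPM in the rest. Basophil and mast cell genes summed to 23.4 and 14.9 CPM, against 533 and 615 CPM in the rest. Other lists were closer to the rest or above it. The 10 plasmacytoid dendritic genes summed to 505 CPM in knockout and 682 CPM in control cells of this set, against 298 and 283 CPM in the rest. Tcf4, a transcription factor of B cells too, gave 331 and 343 CPM and Bst2 154 and 201 CPM of these sums, and 6 and 4 of the 10, Siglech included, were at 0. The 6 monocyte genes summed to 532 and 418 CPM, against 499 and 525 CPM in the rest, of which Cybb, an oxidase subunit, gave 511 and 396 CPM. The 3 eosinophil genes summed to 1568 and 1170 CPM, against 277 and 453 CPM in the rest, nearly all from Prg2. The part of other cells in these sums was not tested. Kit, the gene of the antigen used for the sort, was at 53.5 CPM in knockout and 44.6 CPM in control cells of this set, against 114 and 99.3 CPM in the rest.

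Most members of both libraries expressed IgM. Ighm led the heavy chain constant genes in 34 of 35 knockout cells (97.1%, exact interval 85.1 to 99.9) and 52 of 62 control cells (83.9%, 72.3 to 92.0). The remaining knockout cell expressed Igha, with 2633 UMIs. In the control library, 4 cells expressed Ighg3, 3 Ighg2c, 1 Ighg2b and 1 Igha, each with at least 1841 UMIs of that gene, and 1 cell had 12874 Igkc UMIs but at most 12 of any heavy chain constant gene. Cells with a class other than IgM were thus 1 of 35 in the knockout (2.86%, 0.0723 to 14.9) and 9 of 62 in the control library (14.5%, 6.86 to 25.8), and the intervals overlap. Ighd and Ighg1 led in 0 cells of either library. All 10 of these class-switched cells fell under the line of 40 progenitor marker UMIs. They were not free of such UMIs: an Ighg2c control cell had 23, of which 18 were Mpo.

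Light chains were kappa in 34 of 35 knockout and 60 of 62 control cells. The knockout lambda cell had 7180 UMIs of Iglc1 and 55 of Iglv1. Both light chain types, with the smaller at 10% or more of the sum, were held by 0 knockout and 4 control cells. In 3 of these 4 cells Ighv1-55 led the heavy chain V genes, with 1, 2 and 19 UMIs. Only the cell with 19 reached the 3 UMIs asked for below, so a shared heavy chain V gene is not established. The same 3 cells had 19, 38 and 70 UMIs of Iglv1 beside kappa chains. Iglv1 UMIs alone do not set them apart, since a control kappa cell outside these 4 had 128. Of these 3, 2 expressed Ighg3, with 6522 and 6205 UMIs of Igkc beside 5534 and 4272 of Iglc1, and 1 expressed Ighm, with 8378 of Igkc beside 8770 of Iglc1. The fourth used Ighv11-2 with Igkv14-126 and held 5296 Igkc and 4033 Iglc1 UMIs.

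The same V gene pairs recurred within each library. A heavy and a light chain V gene could be assigned in 34 knockout and 52 control cells, by the leading V gene with at least 3 UMIs and 50% or more of the V gene UMIs of its chain. The 34 knockout cells used 17 pairs, and 22 of them (64.7%, 46.5 to 80.3) used 1 of 5 pairs seen more than once. The 52 control cells used 35 pairs, and 25 of them (48.1%, 34.0 to 62.4) used 1 of 8 repeated pairs. In the knockout library Ighv5-6 with Igkv19-93 came first, in 9 cells, 3 of which held progenitor RNA. Ighv1-81 with Igkv4-59 came next, in 5 cells, and Ighv1-82 with Igkv14-130 in 4, and neither pair was in a control cell. In the control library Ighv5-6 with Igkv3-10 came first, in 6 cells and in 0 knockout cells.

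The libraries shared 4 pairs. Ighv11-2 with Igkv14-126, a combination known from B-1a cells that bind phosphatidylcholine, was in 2 knockout and 4 control cells, all IgM. Ighv7-1 with Igkv15-103 was in 1 knockout and 3 control cells, and Ighv1-55 with Igkv12-89 in 1 of each. Ighv5-6 with Igkv19-93 was in 9 knockout cells, all IgM, and in 1 control cell, which expressed Ighg3. A pair names germline genes and not a clone, since the junction between V, D and J segments is not in the counts. V genes of 1 family differ at few positions, so 3′ reads may be split between close relatives such as those of the Igkv4 family.

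The germline 3′ ends of the V genes of the most frequent pair in each library and of the pair known from B-1a cells are shown as reference sequence for these names. The annotation used to count the reads is not stated. The capitals mark the codon of the conserved cysteine that precedes the third complementarity-determining region; the 75 bases are from GENCODE M21 on GRCm38. Ighv5-6 (chr12:113625506-113625580, minus strand) and Ighv11-2 (chr12:114048241-114048315, minus strand) are heavy chain genes. Igkv19-93 (chr6:68736297-68736371, minus strand), Igkv3-10 (chr6:70573156-70573230, plus strand) and Igkv14-126 (chr6:67896568-67896642, plus strand) are kappa genes.
Ighv5-6: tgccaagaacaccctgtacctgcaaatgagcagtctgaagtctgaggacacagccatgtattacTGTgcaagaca
Igkv19-93: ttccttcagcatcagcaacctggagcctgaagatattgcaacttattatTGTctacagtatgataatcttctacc
Igkv3-10: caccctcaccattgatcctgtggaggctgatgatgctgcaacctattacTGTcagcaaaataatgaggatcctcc
Ighv11-2: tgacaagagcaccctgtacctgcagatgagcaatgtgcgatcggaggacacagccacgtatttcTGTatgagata
Igkv14-126: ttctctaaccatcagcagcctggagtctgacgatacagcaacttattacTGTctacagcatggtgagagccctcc

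**Figure D3:**
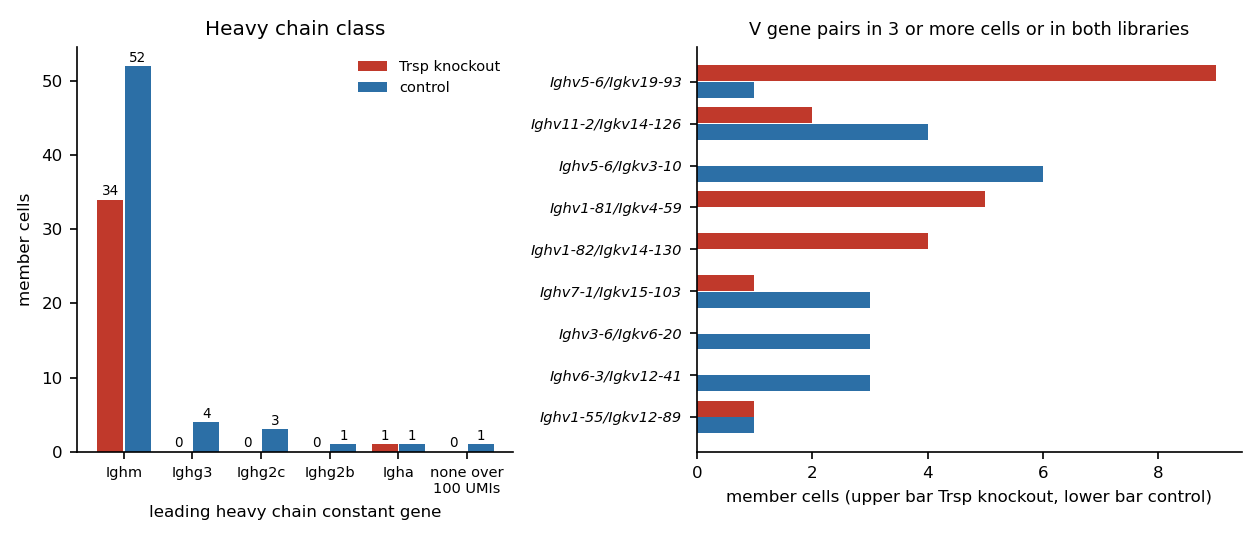
Left, number of member cells by leading heavy chain constant gene, Trsp knockout left of control, with counts above the bars. Right, number of cells with each V gene pair found in 3 or more cells or in both libraries, the upper bar for Trsp knockout and the lower for control. Ighm leads in 34 knockout and 52 control cells, and Ighv5-6 with Igkv19-93 is in 9 knockout cells and 1 control cell.

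Selenoproteins need the tRNA that Trsp encodes, and in plasma cells without progenitor RNA the sum of their mRNAs was close in the 2 libraries. The 24 selenoprotein genes together had 898 UMIs (3002 CPM) in the 27 knockout cells and 1880 UMIs (3103 CPM) in the 53 control cells, a log2 ratio of -0.05 (-0.16 to 0.07). In the rest of kept barcodes they summed to 1247 CPM in the knockout and 3414 CPM in the control library, a log2 ratio of -1.45 (-1.46 to -1.45). The 8 knockout and 9 control members with progenitor RNA had 1790 and 4418 CPM, a log2 ratio of -1.30 (-1.47 to -1.14). Lymphoid progenitors, 580 knockout and 556 control barcodes with at least 3 UMIs of Dntt or with both Ebf1 and Il7r, had 892 and 2431 CPM, a log2 ratio of -1.45 (-1.48 to -1.41). A class of 25 knockout and 43 control barcodes with at least 5 UMIs of T or NK cell genes other than Nkg7, chosen after the data were seen, had 961 and 2298 CPM, a log2 ratio of -1.26 (-1.43 to -1.09). The counting interval of the plasma cells without progenitor RNA overlaps none of these others. Over all members, the log2 ratio was -0.50 (-0.59 to -0.40), from 1379 knockout and 2770 control UMIs. The mix of genes in the sum differed between cell types. Gpx1 gave 257057 of 576466 control UMIs in the rest, but 114 of 1880 in control plasma cells without progenitor RNA. Selenok gave 26505 of the former and 443 of the latter. The sums and the thinned counts below thus weigh different genes, and the part of this mix in their ratios was not tested.

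The same held cell by cell. After every kept barcode was thinned to 4000 non-immunoglobulin UMIs, at least 10 selenoprotein UMIs were left in 21 of 27 knockout plasma cells without progenitor RNA (77.8%, 57.7 to 91.4) and in 43 of 53 control ones (81.1%, 68.0 to 90.6), with a median of 13 UMIs in both. In the rest, 4.68% of 5616 knockout and 74.0% of 7880 control barcodes reached 10, with medians of 5 and 13. Thinning left out 429 knockout and 61 control barcodes of the rest for low depth and 0 members. Without thinning, the shares were 92.6% and 100% in knockout and control plasma cells without progenitor RNA, and 82.9% and 98.9% in the rest.

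**Figure D4:**
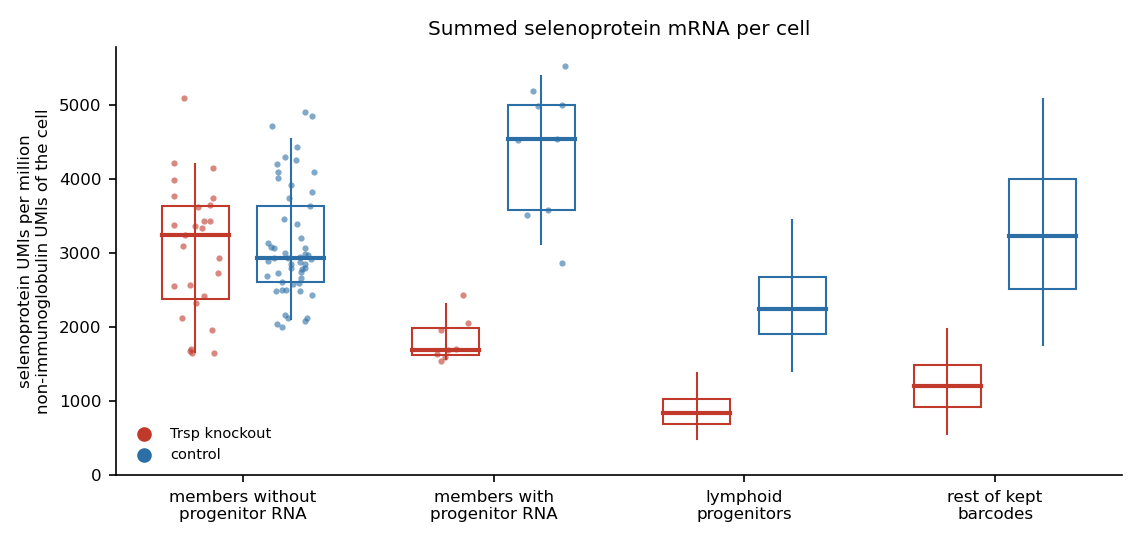
Summed selenoprotein UMIs per 1000000 non-immunoglobulin UMIs of each cell, Trsp knockout left of control; boxes span the quartiles with the median as a thick line, whiskers the 5th to 95th percentile, and points are the member cells. Medians are 3239 and 2926 in knockout and control members without progenitor RNA, 1693 and 4543 in members with it, and 1198 and 3230 in the rest.

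Selenow, a small cytosolic selenoprotein, differed widely between plasma cells and the rest. It had 136 UMIs (455 CPM) in knockout and 277 UMIs (457 CPM) in control plasma cells without progenitor RNA, a log2 ratio of -0.01 (-0.32 to 0.29). In the rest it stood at 13.5 CPM in the knockout and 97.4 CPM in the control library, a log2 ratio of -2.85 (-2.92 to -2.78). Selenow UMIs were found in 26 of 27 and 53 of 53 of these plasma cells, but in 24.2% of the other knockout and 77.9% of the other control barcodes, at median depths of 22397 and 20605 UMIs. Gpx4, the glutathione peroxidase that removes lipid peroxides, had 138 UMIs (461 CPM) and 275 UMIs (454 CPM) in knockout and control plasma cells without progenitor RNA, a log2 ratio of 0.02 (-0.28 to 0.32), against -1.67 in the rest. For both genes the counting interval in these plasma cells includes 0, and in the rest it does not.

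Gpx1, the abundant cytosolic glutathione peroxidase, moved with the progenitor RNA. Over all members it had 112 knockout and 484 control UMIs (197 and 600 CPM), a log2 ratio of -1.60 (-1.91 to -1.30). Without the 17 cells it had 45 and 114 UMIs (150 and 188 CPM), a log2 ratio of -0.32 (-0.85 to 0.19), and the 2 sets of cells ranged from 0 to 7 and from 0 to 6 UMIs. The 17 cells themselves had 3 to 12 Gpx1 UMIs each in the knockout and 14 to 65 in the control library, which do not overlap, and their log2 ratio was -2.88 (-3.28 to -2.50), against -2.58 in the rest. Selenoh, a nucleolar selenoprotein, had 12 and 87 UMIs over all knockout and control members, a log2 ratio of -2.35 (-3.36 to -1.47), and 5 and 25 UMIs without the 17 cells, a log2 ratio of -1.30 (-3.05 to 0.11) whose interval includes 0. Mpo UMIs, given above, were counted in these cells too, and the part of such progenitor RNA in the Gpx1 and Selenoh values was not tested.

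Among the selenoproteins of the ER, 2 stood well above the rest in plasma cells of both genotypes. Selenok, of the ER membrane, was at 649 CPM in knockout and 731 CPM in control plasma cells without progenitor RNA, against 115 and 157 CPM in the rest. Selenos, part of the machinery that removes misfolded proteins from the ER, was at 535 and 645 CPM, against 152 and 167 CPM in the rest. Their log2 ratios were -0.17 (-0.42 to 0.07) and -0.27 (-0.545 to -0.002) in plasma cells, and -0.44 and -0.14 in the rest. Selenof, which binds an ER glycoprotein folding sensor, had 91 knockout and 144 control UMIs and a log2 ratio of 0.36 (-0.04 to 0.74), against -0.73 in the rest, and its level was 304 CPM in knockout and 238 CPM in control cells, against 151 and 251 CPM in the rest. Selenot, an ER membrane oxidoreductase, had 46 and 70 UMIs and 0.41 (-0.16 to 0.97), against -0.70 in the rest. Selenom, a small ER lumen protein, had 18 and 35 UMIs and 0.06 (-0.85 to 0.92), against -1.93 in the rest.

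Among the others, Selenop, the secreted selenium carrier, had 26 knockout and 29 control UMIs without progenitor RNA and a log2 ratio of 0.86 (0.04 to 1.68), against -1.77 in the rest. Msrb1, a methionine sulfoxide reductase, had 11 and 29 UMIs, and Txnrd1, the cytosolic thioredoxin reductase, 11 and 13. Sephs2, an enzyme that makes the selenium donor, had 5 and 11, Txnrd2 of mitochondria 3 and 6, Selenoi of phospholipid synthesis 3 and 7, and Selenoo of mitochondria 5 and 7. All of these last intervals include 0. Over all members these 7 genes had between 8 and 77 UMIs in a library. The other 8 of 24 genes had at most 4 UMIs in either library.

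By count, 0 of 9 measured selenoproteins were higher or lower by the rule used for all genes in plasma cells without progenitor RNA, which asked for at least 2-fold and an interval that excludes 0, and their median log2 ratio was 0.02. A gene was measured at 50 CPM or more in 1 library and 20 UMIs or more over both. A gene near that floor can therefore be measured only through the library where it is higher. Among genes called below without progenitor RNA, those measured only through the knockout library included Cks1b, Isg15, Il5ra, Il10, Ern1 and Vegfa. Those measured only through the control library included H2-Aa, Fcmr, Klk1, Rnaset2b and Rps27rt. In this set 1.81% of 2541 measured genes were higher and 2.6% lower in the knockout library, and their median was -0.08. Over all members, 2 of 11 measured selenoproteins, Gpx1 and Selenoh, were lower and the list median was -0.40, beside 2.84% higher and 0.981% lower of 2751 genes and a median of 0.01. In the rest, 4 of 11 were lower with a median of -0.70, beside 0.53% higher and 0.43% lower of 3020 genes.

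**Figure D5:**
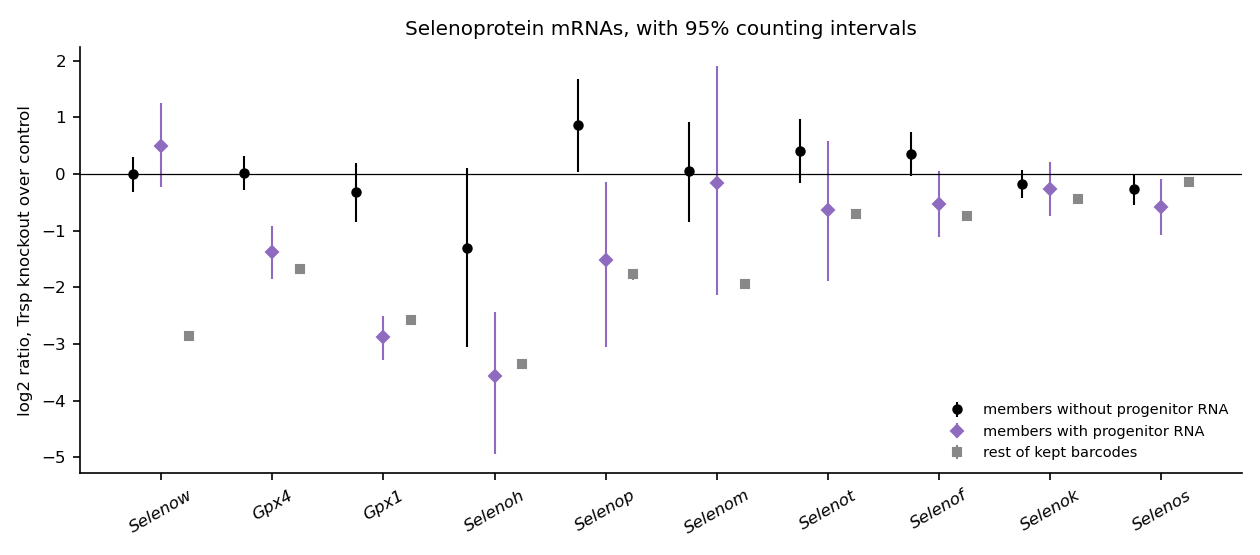
Log2 ratio of Trsp knockout over control with 95% counting intervals for 10 selenoprotein mRNAs in members without progenitor RNA, members with it and the rest of kept barcodes. In members without progenitor RNA, Selenow and Gpx4 lie at -0.01 and 0.02, while in the rest they lie at -2.85 and -1.67.

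The place of the UGA codon differs among these mRNAs, and it is shown because it is the codon that the tRNA reads. Nonsense-mediated decay, which removes mRNAs with early stop codons, is known to depend on the distance to the last exon junction, and its part in these ratios was not tested. In the reference transcripts the TGA of Gpx1 lies 105 bases upstream of the last exon junction, that of Selenow 243, of Gpx4 342, of Selenoh 266, of Selenom 135, of Selenof 78 and of Selenot 470. In Selenok it lies 5 bases upstream, and in Selenos it is in the last exon, so that no junction follows. The 7 genes with 78 or more bases had log2 ratios from -3.35 to -0.70 in the rest of kept barcodes, and Selenok and Selenos had -0.44 and -0.14. In plasma cells without progenitor RNA the 7 ranged from -1.30 to 0.41. The genes with a distance here were picked by hand from the 24 selenoproteins, and distances of the others were not obtained. Among those others, the log2 ratio in the rest was -0.44 for Msrb1, -1.77 for Selenop, -0.99 for Selenon and 0.11 for Txnrd1. No relation of ratio to distance is drawn from this subset. Below, the TGA is in capitals with 15 bases on either side, from GENCODE M21 on GRCm38, plus strand for Gpx1 (chr9:108339451-108339453), Gpx4 (chr10:80054737-80054739), Selenok (chr14:29973440-29973442) and Selenos (chr7:66088844-66088846), and minus strand for Selenow (chr7:15920464-15920466) and Selenoh (chr2:84670381-84670383), with positions of the TGA itself. The stretches of Selenow, Selenoh and Selenok cross an exon junction.
Gpx1: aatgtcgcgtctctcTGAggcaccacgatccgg
Selenow: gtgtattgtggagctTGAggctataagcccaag
Gpx4: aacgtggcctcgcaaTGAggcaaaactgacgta
Selenoh: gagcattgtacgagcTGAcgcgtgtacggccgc
Selenok: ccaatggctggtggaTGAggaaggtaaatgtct
Selenos: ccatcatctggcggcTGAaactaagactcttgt

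NRF2 is a transcription factor that turns on antioxidant genes, and its targets were likewise close in the plasma cells without progenitor RNA. Of 7 measured targets, 0 were higher and 0 lower, with a median log2 ratio of -0.15, and the same genes had a median of 0.38 in the rest. Of all 2541 genes measured in these plasma cells 1.81% were higher and 2.6% lower, so a count of 0 among 7 is near those shares. The same shares belong beside each list count given below for this set. Ftl1, the ferritin light chain, had 384 knockout and 824 control UMIs (1284 and 1360 CPM), a log2 ratio of -0.08 (-0.26 to 0.09), against 1.27 in the rest. Fth1, the ferritin heavy chain, was at 919 and 949 CPM (-0.05), against 0.56 in the rest. Txn1, thioredoxin, was at 415 and 502 CPM (-0.28), and Prdx1, a peroxiredoxin, at 244 and 271 CPM (-0.15). Gclm, which encodes the modifier subunit of glutamate-cysteine ligase, had 53 and 36 UMIs over all members, which is higher in the knockout at a log2 ratio of 1.07 (0.43 to 1.72), but 11 and 23 UMIs without the 17 cells (-0.05, -1.23 to 1.05). Nqo1, Srxn1, Slc7a11, Hmox1, Me1 and Pir had at most 8 UMIs in members of either library. Over all members 1 of 11 measured targets was higher, with a median of 0.20, beside 2.84% of all 2751 measured genes.

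Of 12 genes that were higher or lower in the rest and measured in plasma cells without progenitor RNA, 4 were so in both. Of 6 measured genes higher in the rest, 2 were also higher here, Gm10076 and Rpl35, and Blvrb, Ftl1, Ftl1-ps1 and Txnip were not. Gm10076 had 139 knockout and 58 control UMIs, a log2 ratio of 2.28 (1.83 to 2.75), against 2.49 in the rest. Rpl35, a protein of the large ribosomal subunit, had 314 and 203 UMIs, a log2 ratio of 1.65 (1.39 to 1.91), against 1.38 in the rest. Of 6 genes lower in the rest, Rnaset2b and Rps27rt were also lower here, with 4 knockout and 33 control UMIs and with 14 and 72, and Gpx1, Gpx4, Selenow and Rpl9-ps6 were not. Ribosomal protein genes and Rnaset2b have close copies in the mouse genome, so reads of these genes may be split.

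Of the plasma cell program, most genes were close in the 2 libraries. Of 17 measured genes, 1 was higher and 0 were lower in plasma cells without progenitor RNA, and the median log2 ratio was -0.07. That gene was Prdm1, with 53 UMIs (177 CPM) in knockout and 51 UMIs (84.2 CPM) in control cells, a log2 ratio of 1.07 (0.49 to 1.66). Irf4 had 110 and 122 UMIs (368 and 201 CPM), a log2 ratio of 0.87 (0.48 to 1.252), short of 2-fold. Mzb1 had 512 and 1632 UMIs (1712 and 2694 CPM), the lowest ratio of the list at -0.65 (-0.80 to -0.51), and Xbp1 had 431 and 1125 UMIs (1441 and 1857 CPM), at -0.37 (-0.53 to -0.20). Txndc5, an ER protein disulfide isomerase, was the highest gene of the list in knockout cells, at 2544 CPM against 2261 CPM in control cells. Over all members Prdm1 had 64 and 58 UMIs and a ratio of 0.65 (0.11 to 1.19), so its call rests on leaving out the 17 cells, and the list median was -0.29.

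Genes of antibody folding and export were high in both libraries. The 20 ER chaperone and folding genes summed to 15806 CPM in knockout and 16538 CPM in control plasma cells without progenitor RNA, against 6106 and 6554 CPM in the rest, and 0 of 20 were higher or lower, with a median log2 ratio of -0.23. Hsp90b1 (GRP94) was at 3019 and 2687 CPM and Hspa5 (BiP) at 2287 and 2453 CPM. Dnajc3, a BiP cochaperone, had the lowest ratio of the list, -0.57 (-0.83 to -0.32), with 167 and 503 UMIs. The 24 measured translocation and signal peptide genes had 0 calls in either direction and a median of -0.14, with Ssr4 of the translocon-associated complex at 2307 and 2526 CPM and Sec11c of the signal peptidase at 1845 and 1870 CPM.

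Of 19 measured genes of ER degradation and the unfolded protein response, 1 was higher, 0 lower, and the median was 0.01. That gene was Ern1, which encodes the IRE1 kinase and nuclease that splices Xbp1 mRNA, with 18 knockout and 12 control UMIs, a log2 ratio of 1.60 (0.47 to 2.79). At 60.2 and 19.8 CPM, Ern1 passed the 50 CPM floor only in the knockout library. Over all members it stood at 49.3 and 18.6 CPM and was not measured. Herpud1, of the ER degradation complex, was at 1561 and 1269 CPM and its partner Sel1l at 1076 and 962 CPM. Ddit3, the stress factor CHOP, had 33 and 71 UMIs and a ratio of -0.09.

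Antigen presentation and B cell genes were mostly close. Cd74, the class II invariant chain, was at 6111 CPM in knockout and 6335 CPM in control plasma cells without progenitor RNA, against 127 and 106 CPM in the rest. Of 4 measured class II genes only H2-Aa was lower, with 3 knockout and 43 control UMIs, a log2 ratio of -2.82 (-5.16 to -1.18). Over all members, those with progenitor RNA included, H2-Aa was found in only 4 of 35 knockout and 9 of 62 control cells. H2-Ab1, the partner chain of H2-Aa, was at 170 and 154 CPM. Of 7 measured mature B genes only Fcmr, an Fc receptor for IgM, was lower, with 2 and 36 UMIs and a ratio of -3.15 (-6.25 to -1.19). Over all members, those with progenitor RNA included, Fcmr was found in 3 of 35 and 14 of 62 cells. Cd79b, Fcrla, Ralgps2 and Blnk were at 328, 311, 164 and 160 CPM in knockout and 381, 307, 162 and 142 CPM in control cells.

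Niche and survival genes gave 0 calls among 11 measured, with a median log2 ratio of 0.15. Mcl1, the survival factor that plasma cells depend on, was at 732 and 890 CPM, and Tnfrsf17 and Tnfrsf13b, both receptors of the BAFF and APRIL ligands, at 394 and 304 CPM in knockout and 352 and 322 CPM in control cells. Among 6 measured interferon-response genes 2 were higher. Isg15 had 15 knockout and 5 control UMIs in this set, and over all members it was found in 4 of 35 and 5 of 62 cells. Ifi27l2a had 75 and 55 UMIs, 46 of the 75 from 1 cell. Immediate early genes summed to 22218 and 20178 CPM, against 4413 and 4720 CPM in the rest, and Jun, Fos and Fosb were at 5864, 4135 and 3377 CPM in knockout and 5239, 4335 and 3140 CPM in control cells. None of 13 measured ones was higher or lower, and the median was 0.16.

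Cell division genes were low in plasma cells without progenitor RNA, summing to 491 CPM in knockout and 477 CPM in control cells, against 5578 and 5031 CPM in the rest. Of 4 measured, Cks1b was higher, with 23 UMIs in each library (76.9 and 38.0 CPM) and a log2 ratio of 1.018 (0.12 to 1.92). It passed the 50 CPM floor only in the knockout library. Mki67 had 22 and 35 UMIs. Over all members, 2 of 11 were higher, Stmn1 and Top2a, beside 2.84% of all 2751 measured genes. The sums over all members were 1930 and 1226 CPM, and in the members with progenitor RNA they were 3532 and 3480 CPM. The larger weight of those members in the knockout library is given above, and its part in these sums was not tested. Oxidative phosphorylation genes (20 measured, median -0.13), mitochondrial transcripts (12 measured, median -0.03) and selenocysteine synthesis and insertion genes (3 measured, median -0.09) gave 0 calls in either direction. Among markers of other cells in this set, Prtn3 of neutrophil progenitors was lower, with 16 knockout and 83 control UMIs. Klk1 had 0 and 47, the 47 all in 1 control cell. Il5ra, the interleukin-5 receptor, which B-1 cells and eosinophils share, was higher, with 29 and 22 UMIs (96.9 and 36.3 CPM) and a ratio of 1.42 (0.57 to 2.29), in 19 of 27 knockout and 14 of 53 control cells.

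Over all members, 78 genes were higher and 27 lower in the knockout library, and several of the 12 named at the top had few UMIs without the 17 cells. Hist1h2ap, a replication-dependent histone, led with 132 knockout and 6 control UMIs (log2 4.97), and had 4 and 1 without the 17 cells. Hist1h2ae and Hist1h4d followed with 61 and 7 and with 60 and 15 UMIs. Cebpa, a myeloid transcription factor, had 29 and 12 UMIs, and 1 and 3 without the 17 cells. Stmn1, a microtubule regulator of dividing cells, had 208 and 100, and 8 and 23 without them. Rgs1, Dusp2 and Rnpep were at 38 and 11, 35 and 15, and 32 and 12 UMIs. Pim2, a survival kinase of plasma cells, had 29 and 8 UMIs (log2 2.37, 1.20 to 3.71), and 12 and 7 without the 17 cells (log2 1.80). Zfp36l2, an mRNA decay factor, had 265 and 121 UMIs (log2 1.64), and 108 and 82 without them (1.42), 51 of the 108 from 1 cell. Gm10076 and Rpl35 completed the 12. Over all members only Gm10076, Rpl35, Zfp36l2 and Stmn1 among these 12 were at 50 CPM or more in both libraries. The others passed that floor only in the knockout library, where they were higher.

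The 12 named at the bottom included both selenoproteins given above. Besides Selenoh and Gpx1 they were Gm30211, Kcnmb4os2, Gadd45b, Rnaset2b, Rhobtb1, Hsd11b1, Slc33a1, Cyb561a3, Ubxn2a and Ccdc25. Over all members only Gpx1 among these 12 was at 50 CPM or more in both libraries. The others passed that floor only in the control library, where they were higher. Gm30211 had 23 knockout and 131 control UMIs, a log2 ratio of -2.002 (-2.71 to -1.36), and -1.86 without the 17 cells. In the rest it had 5 and 1 UMIs. Hsd11b1, the enzyme that regenerates active glucocorticoid, had 23 and 83 UMIs (log2 -1.34, -2.08 to -0.66), and -1.21 without the 17 cells. Gadd45b, a stress-induced gene, had 15 and 60 UMIs (log2 -1.49, -2.42 to -0.66), and -1.24 without them. Without the 17 cells the 12 ratios ranged from -2.03 for Rnaset2b to -0.32 for Gpx1. In that set the intervals of Gpx1, Selenoh, Rhobtb1 (-2.06 to 0.29) and Slc33a1 (-1.62 to 0.26) include 0.

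Without the 17 cells, 46 genes were higher and 66 lower, and 33 of the 105 genes called over all members were called in the same direction here (15 higher, 18 lower). Of these 112, 44 higher and 58 lower genes had UMIs in at least 25% of the cells of the library with the higher level; the following were picked after their values were seen. Vegfa, an angiogenic growth factor, had 18 knockout and 3 control UMIs, a log2 ratio of 3.603 (1.83 to 6.01), in 8 of 27 and 3 of 53 cells. At 60.2 and 4.95 CPM, Vegfa passed the 50 CPM floor only in the knockout library. Over all members it stood at 42.3 and 9.91 CPM and was not measured. Il10, an anti-inflammatory cytokine, had 27 and 21 UMIs (log2 1.38), in 15 of 27 and 9 of 53 cells. Slpi, a secreted protease inhibitor, had 767 and 552 UMIs (log2 1.49), with 317 of the 767 in 1 cell. Tmsb4x, an actin-binding peptide, had 62 and 275 UMIs (log2 -1.13), with 70 of the 275 in 1 cell. Cd69, which restrains exit from tissues, had 16 and 84 UMIs (log2 -1.37), with 26 of the 84 in 1 cell. Over all members Slpi was also called, at a log2 ratio of 1.15. Il10 (0.82), Tmsb4x (-0.02) and Cd69 (-0.47) were not, so their calls rest on leaving out the 17 cells.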

How the data were processed

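The authors deposited gene by barcode matrices of UMI counts, 1 per library, over 32285 genes, with no normalization per the file headers. Cell Ranger 6.1.2 and the mm10 genome build are named per the submitters' processing notes. Nothing in those notes states the counting settings.

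The member cells and gene lists were chosen with earlier results of these data known. Counts were summed over cells of a library and scaled to 1000000 non-immunoglobulin UMIs. A gene was measured at 50 CPM in 1 library and 20 UMIs over both, and was called at 2-fold with a 95% exact conditional binomial interval that excludes 0. Shares have Clopper-Pearson intervals. Genes at 0 in 1 group were set against 3 UMIs. Genes named beyond the lists were the 12 highest and 12 lowest called ratios over all members with a UMI in at least 25% of the cells of the higher library, without immunoglobulin, mitochondrial and sex-linked genes. Scrublet, in scanpy 1.11.5 with an expected rate of 10%, marked 66 knockout (1.09%) and 139 control (1.74%) kept barcodes at the control threshold, and none were removed. Python 3.11.15, numpy 2.4.6, scipy 1.17.1, pandas 2.3.3 and matplotlib 3.10.9 were used, and the ratio code was tested on simulated data.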

Additional observations from a re-analysis of the deposited data

Results flagged for a closer look

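Some barcodes met the member rule on immunoglobulin counts but failed the barcode filter, so the comparisons leave them out. There were 6 in the knockout library, all with under 1000 genes, with 597 to 2154 UMIs and 12.3% to 39.6% of them from immunoglobulin genes and Jchain. There were 8 in the control library, 6 with under 1000 genes and 2 with a high mitochondrial share, with 834 to 43182 UMIs and 8.20% to 59.3% from those genes.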

How the results depend on the processing

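Removing marked doublets and keeping the Igkc and Jchain route alone left out 0 members and are not counted here. Under the other alternatives, 74 values that answer a comparison stayed close and 16 moved. The counts of genes higher and lower in knockout members, 78 and 27, became 44 and 5 with all UMIs as the denominator, 326 and 121 with at least 10 UMIs and no CPM floor, 8 and 2 with at least 200 CPM and 50 UMIs, and 135 and 48 with members of the Cd79a route only. The 2 further sets were chosen after seeing the data. Without members holding progenitor RNA the counts were 46 and 66, and in the 26 knockout and 43 control Ighm-led cells among these they were 42 and 73. The selenoprotein median, -0.40 over all members, was 0.023 and 0.14 in these sets. The ratios of Cebpa were -0.57 and -0.18 and those of Stmn1 -0.51 and -0.62 in these sets, opposite in sign to all members, but without progenitor RNA Cebpa had 1 knockout and 3 control UMIs and the Stmn1 interval was -1.88 to 0.71, so neither shows a direction. The cause of these changes was not tested. Without thinning, 94.3% of knockout and 100% of control members had at least 10 selenoprotein UMIs, against 65.7% and 83.9% with it. Of values for single genes, 327 stayed close, 32 moved and these 4 changed sign, and of further list medians 85 stayed close and 2 moved. No paired analysis was possible because each genotype has 1 library. The 27 knockout cells without progenitor RNA gave 299124 non-immunoglobulin UMIs, so most single genes have wide intervals, and differences between mice, between libraries and between genotypes cannot be told apart.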
